A study of Mus musculus with 8 samples.

Results

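The replication-dependent histone genes of the mouse were examined for SMAD4 chromatin complexes in early limb buds. The members are the protein-coding genes of the mm9 annotation (GENCODE vM1) whose symbols start with Hist1h, Hist2h, Hist3h or Hist4h. Of 22350 protein-coding genes on chromosomes 1 to 19 and X, 67 (0.300%) met this rule, namely 6 H1, 19 H2A, 18 H2B, 11 H3 and 13 H4 genes. Another 3 genes with such symbols (Hist3h2bb-ps, Hist1h2aj and Hist2h3c2) are annotated as other types and were left out. A peak was counted as a histone-locus peak if its centre lay within 5 kb of a member's 5′ end or inside a cluster, that is a run of members under 200 kb apart. By this rule, 0 of 2073 peaks at E9.5 and 2 of 6185 peaks at E10.5 were histone-locus peaks.

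The study mapped SMAD4, the shared partner of the BMP- and TGFβ-regulated SMAD proteins, by ChIP-seq at 2 stages of limb bud development. All embryos were of the NMRI strain and carried the Smad4Flag allele on both chromosomes (Smad4 3xF/3xF), so that the M2 anti-FLAG antibody pulled down the endogenous protein with a 3xFlag epitope, and no embryos without the tag were among the samples used here. The E9.5 samples were forelimb buds with attached trunk, dated E9.75 in the protocol, from about 80 pooled embryos per replicate. The E10.5 samples were fore- and hindlimb buds from about 100 pooled embryos per replicate, although another label gives forelimb buds as the source of every sample. Of the 8 samples, 2 were ChIP and 2 input DNA at each stage, and the labels do not say whether the replicates came from separate litters. The replicates of a stage were combined by the authors into a single list of peaks, so no value below has a replicate error, and no test between the stages was possible. Tissue and stage change together and cannot be told apart. Peak lists hold no expression values, so that the labelled tissue could not be checked against marker genes. Sequencing depth is not known from the files, so that the lack of a called peak does not show that SMAD4 was absent there.

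Replication-dependent histone genes encode the bulk histones that package newly made DNA, and they are transcribed mostly in S phase of dividing cells. They are short, mostly lack introns and lie in clusters in which H2A and H2B genes often share a divergent promoter. Their mRNAs end in a stem-loop in place of a poly(A) tail, whereas the replication-independent variants such as H3.3 and H2A.Z are encoded by single genes outside the clusters. The members form 3 large clusters, a small one and 2 single genes. The first Hist1 cluster (chr13:21807632-22135545, 328 kb) holds 23 members, the second Hist1 cluster (chr13:23622919-24026720, 404 kb) holds 31, and the Hist2 cluster (chr3:96023839-96082924, 59.1 kb) holds 9. Hist3h2ba and Hist3h2a make up the Hist3 cluster (chr11:58762413-58770176, 7.76 kb), while Hist4h4 (chr6:136752589-136752900) and the H2A gene Hist1h2al (chr13:51298057-51298434) stand alone. All coordinates are of mm9.

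The name of the group was checked on the genome sequence. The stem-loop was searched as a stem of GGCTCT, a loop of 4 bases and AGAGCC, or as a stem of GGCCCT and AGGGCC, along the gene's strand within 150 bases after each annotated stop codon, with up to 1 mismatch in the stems. The second stem was added after seeing the data, since the first was found in no H4 gene. One or the other was found in 62 of 67 members (92.5%) and in 56 of 22283 other protein-coding genes (0.251%). The first stem alone was found in 51 members (76.1%). A median of 30 bases lay between the stop codon and the stem-loop, with a range of 21 to 58. These are the 3 most frequent forms, shown because they define the group and separate the H4 genes from the others, with the paired stems in capitals:
most frequent form, 39 genes: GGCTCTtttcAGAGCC
form with a changed loop, 9 genes: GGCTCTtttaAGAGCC
form of the H4 genes, 8 genes: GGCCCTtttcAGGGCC
The first form was found in 5 H1, 15 H2A, 12 H2B and 7 H3 genes, and the third form was found in H4 genes alone. Neither stem was found after the annotated stop codons of Hist1h2al, Hist1h4b, Hist1h4j, Hist2h2bb and Hist2h2be, which were kept as members by their symbols.

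The distance from each 5′ end to the nearest SMAD4 peak was determined first, since it shows how far the histone genes lay from any called region. No member had an E9.5 peak centre within 5 kb of its 5′ end (0 of 67, which allows a share of up to 4.48% taken as 3 counts, or up to 5.42% by the 95% Wilson interval), while this was the case for 2.64% of all protein-coding genes. At E10.5, 2 of 67 members (2.99%, with a 95% Wilson interval of 0.822% to 10.2%) had such a peak, while 13.0% of all protein-coding genes did. Both belong to the same peak, and neighbouring members share most of their surroundings: the 5 kb windows of the 67 members merge into 19 separate stretches. Therefore, the interval, which covers counting error of independent genes only, understates the uncertainty. No member had peaks of both stages within 5 kb, against 1.30% of all protein-coding genes. The merged windows of the members covered 316 kb and held 0 E9.5 peaks and 1 E10.5 peak. This corresponds to 0 peaks per Mb at E9.5, with an exact 95% Poisson interval of 0 to 11.7 for counting error, and to 3.17 peaks per Mb at E10.5, with an interval of 0.0802 to 17.6. The merged windows of all protein-coding genes held 2.66 E9.5 and 12.6 E10.5 peaks per Mb. Both values lay inside the wide intervals of the members, so that a difference in density was not detectable with so little sequence.

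**Figure D1:**
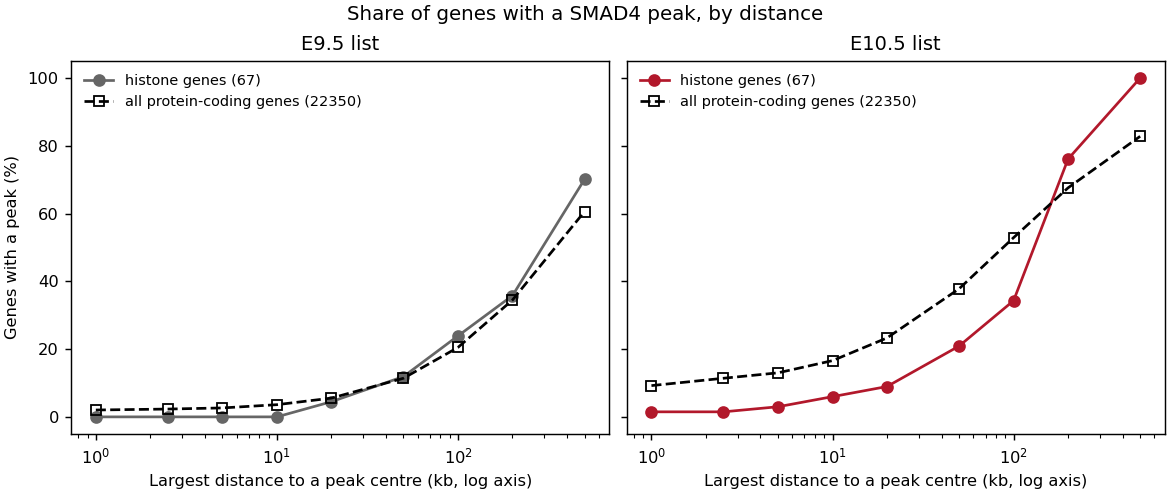
Share of the 67 histone genes (filled circles) and of all 22350 protein-coding genes (open squares) with a SMAD4 peak centre within each distance of the 5′ end, on a log distance axis, for the E9.5 list (left) and the E10.5 list (right). At E10.5 the histone genes lie below all protein-coding genes up to 100 kb (34.3% and 52.9%) and above them at 200 kb (76.1% and 67.6%), whereas at E9.5 the curves lie close together from 50 kb (11.9% and 11.4%) to 200 kb (35.8% and 34.5%).

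At larger distances, the share of members was close to that of all genes in the E9.5 list and below it in the E10.5 list up to 100 kb. Within 50 kb, 8 of 67 members (11.9%) had an E9.5 peak, against 11.4% of all protein-coding genes, and within 100 kb 16 members (23.9%) did, against 20.5%. In the E10.5 list, 14 members (20.9%) had a peak within 50 kb, against 37.8% of all protein-coding genes, and 23 members (34.3%) within 100 kb, against 52.9%. The median distance to the nearest E9.5 peak was 414 kb for the members (quartiles 103 and 519 kb) and 349.7 kb for all protein-coding genes (quartiles 129.7 and 848 kb). The median distance to the nearest E10.5 peak was 162 kb for the members (quartiles 55.8 and 190.4 kb) and 87.8 kb for all protein-coding genes (quartiles 22.9 and 297 kb). Because the members lie side by side, these figures rest on few peaks. The peaks nearest to the 67 members are only 6 peaks of the E9.5 list and 7 of the E10.5 list. All 8 members within 50 kb of an E9.5 peak are in the second Hist1 cluster and near the same peak. Of the 14 members within 50 kb of an E10.5 peak, 11 are in the first Hist1 cluster and near the Hist1h1b peak, 2 are the Hist3 genes, and 1 is Hist4h4.

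**Figure D2:**
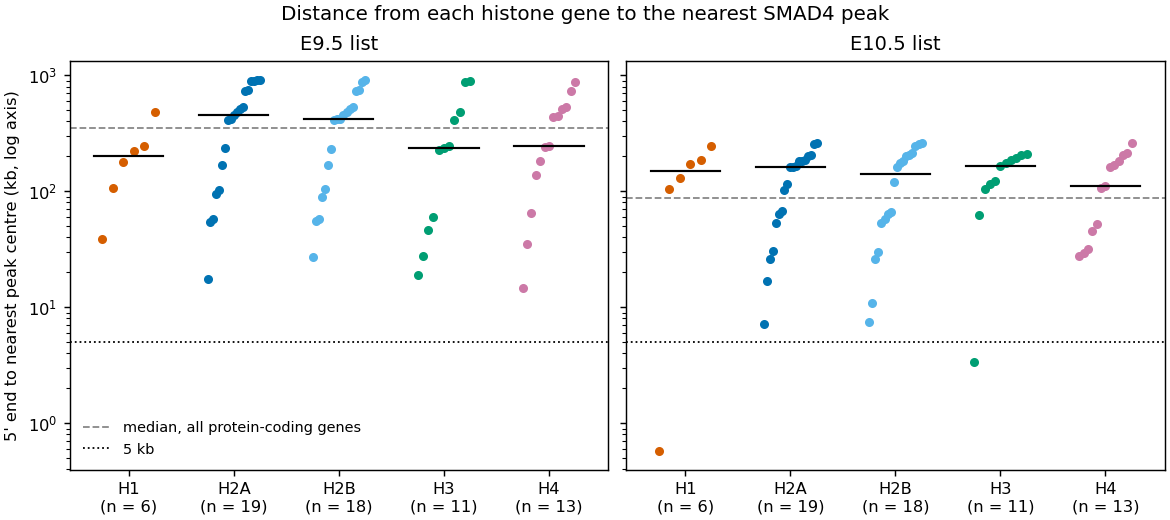
Distance from the 5′ end of each of the 67 histone genes (points) to the nearest SMAD4 peak centre by histone type, on a log axis in kb, for the E9.5 list (left) and the E10.5 list (right). Black bars are medians, the dashed line is the median of all protein-coding genes and the dotted line marks 5 kb. The 2 points below the dotted line at E10.5 are Hist1h1b (0.576 kb) and Hist1h3i (3.35 kb).

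The single peak at a member was that of Hist1h1b, which encodes an H1 linker histone, the class that binds DNA between nucleosomes. The E10.5 peak chr13:21870974-21872863 (1890 bp) covers the whole annotated gene and reaches 369 bp upstream of its 5′ end, which is on the minus strand, so Hist1h1b was the only member with its 5′ end inside an E10.5 peak (1 of 67, against 11.3% of all protein-coding genes). Its centre lies inside the gene at 0.576 kb from the 5′ end. The score of the peak was 50.2, while the median of the E10.5 list was 59.8. It ranked 5289 of 6185, and 14.4% of the list scored lower. Its width was also below the median of 2552 bp, since 31.1% of the E10.5 peaks were narrower. No E9.5 peak overlapped it, and the nearest E9.5 peak centre lay 478 kb from Hist1h1b.

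The second member within 5 kb, the H3 gene Hist1h3i, lies upstream of Hist1h1b on the same strand, and its 5′ end is 3.35 kb from the centre of the Hist1h1b peak. The peak itself does not reach Hist1h3i, so this gene was counted by distance alone. The divergent pair of the H2A gene Hist1h2an and the H2B gene Hist1h2bp follows next at 7.17 and 7.41 kb. With these, 4 members (5.97%) had an E10.5 peak centre within 10 kb, against 16.6% of all protein-coding genes.

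Among the other H1 genes, the nearest E10.5 peak centre was 104 kb from Hist1h1a, 129 kb from Hist1h1c, 172 kb from the testis-type Hist1h1t, 186 kb from Hist1h1d and 245 kb from Hist1h1e. None of these 5 had an E10.5 peak within 100 kb, against 52.9% of all protein-coding genes, but all 5 are in the second Hist1 cluster and share 2 nearest peaks. At E9.5, Hist1h1d was nearest to a peak with 38.6 kb, and the other H1 genes lay between 106 kb (Hist1h1e) and 478 kb (Hist1h1b) away.

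The core histone genes were described by type, and each count is to be read against the 13.0% of all protein-coding genes. Of the H3 genes, which encode a histone of the nucleosome centre, 1 of 11 (Hist1h3i) had an E10.5 peak within 5 kb, which is near that share for so few genes, and the median distance was 166 kb. None of the 13 genes of H4, the partner of H3, had one, and their nearest E10.5 peak was 27.6 kb away (Hist4h4), with a median of 110.4 kb. Likewise, none of the 19 H2A genes (median 162 kb) and none of the 18 H2B genes (median 142 kb) had an E10.5 peak within 5 kb. Of the members, 13 pairs of neighbours started within 1 kb of each other on opposite strands, of which 12 pair an H2A with an H2B gene. The 5′ ends of these 12 pairs were separated by 167 to 305 bp (median 227 bp), and 0 of 12 pairs had a peak of either stage within 5 kb, a count too small to be set apart from the 2.64% and 13.0% of single protein-coding genes. The other pair joins the H2B gene Hist1h2bh and the H3 gene Hist1h3f.

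**Figure D3:**
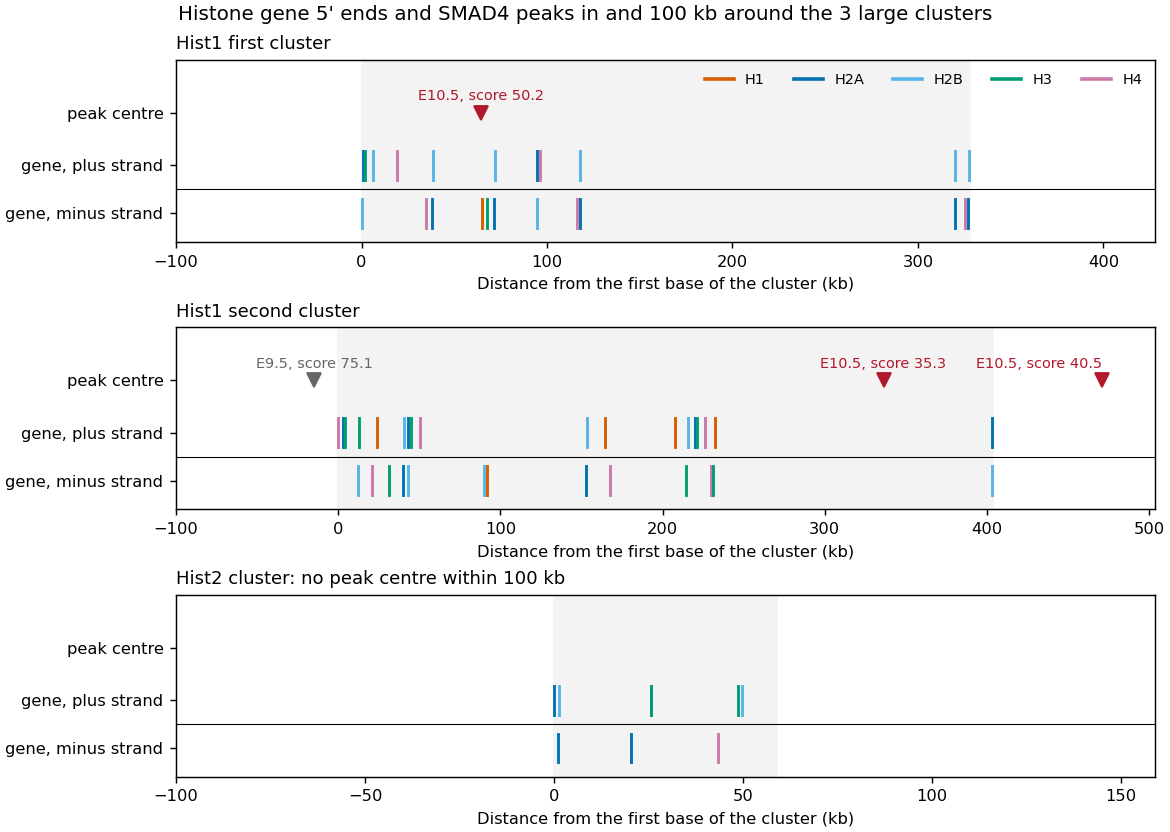
Maps of the first Hist1 cluster (23 genes), the second Hist1 cluster (31 genes) and the Hist2 cluster (9 genes) with 100 kb on either side, drawn to scale as distance in kb from the first base of each cluster. Coloured ticks are 5′ ends by strand and histone type, the grey area is the cluster, and triangles are the centres of E9.5 (grey) and E10.5 (red) peaks with their scores. Each Hist1 cluster holds 1 E10.5 peak, and no peak centre lies within 100 kb of the Hist2 cluster.

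Peaks inside the clusters but away from the histone genes were then determined. The second Hist1 cluster, with 31 members the largest, held 1 E10.5 peak at chr13:23957740-23960667 (2928 bp) with a score of 35.3. This peak ranked 6080 of 6185, and 1.68% of the list scored lower. It lies in the stretch between the bulk of the cluster and the divergent pair of the testis-type genes Hist1h2ba and Hist1h2aa, 66.8 kb from Hist1h2ba. Its nearest protein-coding gene is Slc17a1, which encodes a sodium-dependent phosphate transporter, at 0.416 kb. Slc17a1 was the only one of 11 other protein-coding genes in the clusters with an E10.5 peak within 5 kb, and none of the 11 had an E9.5 peak, counts close to the 13.0% and 2.64% of all protein-coding genes. Over their 799 kb, the clusters held 2.5 E10.5 peaks per Mb, while the whole genome held 2.42. No E9.5 peak lay inside a cluster, and the genome held 0.811 per Mb. The 3 large clusters are dense in genes, with 7.97 members per 100 kb, against 0.874 protein-coding genes per 100 kb over the sequenced genome.

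The peaks within 100 kb outside the clusters were described next, without a comparison of their number with the genome. The best-scored one at a Hist1 cluster was the E9.5 peak chr13:23607909-23608608 (700 bp), which lies before the second Hist1 cluster. Its score was 75.1, while the median of the E9.5 list was 56.3, and it ranked 397 of 2073. This peak is intergenic, and its nearest protein-coding gene is Hist1h4h, an H4 gene, at 14.7 kb. The H2A gene Hist1h2af follows at 17.5 kb, and the H3 gene Hist1h3g lies beyond it. On the other side of that cluster, the E10.5 peak chr13:24092832-24095188 (score 40.5, rank 5820) was 67.7 kb from Hist1h2aa and 10.9 kb from Scgn, which encodes a calcium-binding protein. At the Hist3 cluster, the E9.5 peak chr11:58672570-58673107 (score 59.5, rank 832) was 89.6 kb from Hist3h2ba and 0.0970 kb from Gm12258. The E10.5 peak chr11:58750062-58752924 (score 52.9, rank 4512) had its centre in Rnf187, a ubiquitin ligase gene, at 10.9 kb from Hist3h2ba and 16.7 kb from Hist3h2a. The single gene Hist4h4 had an E10.5 peak at 27.6 kb, chr6:136779607-136781335 (score 69.3, rank 1895), whose centre lies in BC049715 and C030030A07Rik. None of these peaks within 100 kb was shared by the stages. In the Hist2 cluster, all 9 genes were 867 to 917 kb from the nearest E9.5 peak and 162 to 212 kb from the nearest E10.5 peak. For Hist1h2al, the nearest peak of either stage was 102 kb away. These are overlapping peaks of the 2 stages, chr13:51195198-51197196 at E9.5 (score 165, rank 81) and chr13:51194980-51197111 at E10.5 (score 128, rank 196), and in each list they had the best rank among the peaks nearest to a member.

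The sequence of the few peaks was searched for the SMAD-binding word CAGACC, for its shorter form CAGAC (each longer match also holds the shorter one), for the palindrome GTCTAGAC and for GGCGCC, on both strands. The 300 bp around the centre of the Hist1h1b peak held none of them, although 19.7% of E10.5 peaks held CAGACC and 53.2% held CAGAC in this window. The lists give no summits, so the centre need not be where the signal was highest. The whole Hist1h1b peak held 3 CAGACC, 5 CAGAC, 1 GGCGCC and 0 GTCTAGAC matches. The 3 CAGACC sites are shown with 12 bases on either side on the plus strand of mm9, with the match in capitals (GGTCTG is CAGACC on the other strand):
chr13:21871031-21871060, 875 bp before the centre: gccagtgtccagGGTCTGcttcaggacctt
chr13:21871641-21871670, 265 bp before the centre: tcccaatcgagaCAGACCatggaaagcata
chr13:21872124-21872153, 218 bp after the centre: gccggtgcccttGGTCTGcaccagggtacc
The first and second sites lie downstream of the annotated gene and the third lies inside it, so none of the 3 is in the promoter. The E9.5 peak before Hist1h4h held 1 CAGACC site, shown because this was the best-scored peak near a Hist1 cluster:
chr13:23608403-23608432, 157 bp after the centre: tagtctggggtgGGTCTGggatgacagtga
The E10.5 peak near Slc17a1 held 4 CAGACC matches over its 2928 bp, and none lay within 150 bp of its centre. A match describes the letters of the genome and not a bound site.

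The promoters of the members, taken as the 250 bases before the 5′ end, were compared with those of all protein-coding genes for the elements of histone promoters, searched on both strands. The CCAAT box (CCAAT, recognised by NF-Y) was found in 57 of 67 members (85.1%) and in 35.0% of all protein-coding genes. It was found in all 6 H1, 19 H2A and 18 H2B genes, in 10 of 11 H3 genes and in 4 of 13 H4 genes. The TATA box (TATAAA) was found in 49.3% of members and in 12.3% of all protein-coding genes. For Hist1h2bp, Hist1h2bc, Hist2h2be and Hist1h2ae, the only match was on the other strand and was the TATA box of the divergent partner. For Hist1h2bn, Hist1h2bk and Hist1h2bf, the only match was also on the other strand and lay inside the partner H2A gene. The share of members with the word on their own strand is therefore lower than 49.3%. The octamer (ATTTGCAT, recognised by OCT1) was found in 15 members (22.4%), 8 of them H2B and 7 H2A genes, and in 1.62% of all protein-coding genes. Because the H2A and H2B promoters are shared, the same octamer was often counted for both genes. The octamer of 3 H2B genes is shown along the H2B strand, each of which also serves as a match for the H2A gene of the pair (Hist1h2ah, Hist1h2ae and Hist2h2ac):
Hist1h2bk, 30 bases before the 5′ end, chr13:22127649-22127678, plus strand: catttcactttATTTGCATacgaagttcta
Hist1h2bg, 55 bases before, chr13:23663199-23663228, plus strand: ttgagtcccttATTTGCATagaacctctat
Hist2h2be, 48 bases before, chr3:96024985-96025014, plus strand: tttgagacctaATTTGCATaaggcgttcat
The nearest E10.5 peak centre was 202 kb from Hist1h2bg and 163 kb from Hist2h2be. An E2F word (TTTCCCGC, TTTCGCGC, TTTGCCGC or TTTGGCGC) was found in 11.9% of members and 2.15% of all protein-coding genes. Hist1h2an and Hist1h2bp shared the same E2F site, as did Hist1h2ag and Hist1h2bj, so these sites were counted for both genes of the pair. The E2F words of Hist1h2bk and Hist1h2bf reach into the H2A gene of the pair.

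The H1 box (AAACACA) was found in 9 of 67 members (13.4%) and in 5.67% of all protein-coding genes. It was found in 5 of 6 H1 genes and also in Hist1h2bm, Hist1h2ab, Hist1h2ba and Hist1h3a. The 5 H1 genes with it are shown along their strand. They set Hist1h1b, whose H1 box lies inside the E10.5 peak, beside H1 genes that had no peak:
Hist1h1b, 117 bases before the 5′ end, chr13:21872593-21872622, minus strand: tggggactaacAAACACAatttgggattgt
Hist1h1c, 112 bases before, chr13:23830553-23830582, plus strand: tgaagtgtaacAAACACAagttgggcgcag
Hist1h1d, 122 bases before, chr13:23646768-23646797, plus strand: tgaggggcaacAAACACAgccacaaggcaa
Hist1h1e, 171 bases before, chr13:23714524-23714553, minus strand: tgaggtgtaacAAACACAactccgcatctg
Hist1h1t, 114 bases before, chr13:23787555-23787584, plus strand: ggggggaaaagAAACACAaatgcccctcct
The Hist1h1b promoter also holds CCAAT boxes starting 168, 66 and 53 bases and a TATA box starting 28 bases before the 5′ end, and all of these lie inside the peak. Its CCAAT box at 53 bases and its TATA box are shown in turn:
chr13:21872530-21872559, minus strand: ttggccgctccaCCAATcacagcccagcac
chr13:21872505-21872534, minus strand: agcaccggcttaTATAAAccaggagcctga
Thus, Hist1h1b had the H1 box and the CCAAT box in common with Hist1h1c, Hist1h1d, Hist1h1e and Hist1h1t, for which neither list held a peak within 5 kb.

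The same promoters were searched for the SMAD words. CAGACC was found in 3 of 67 members (4.48%) and in 13.5% of all protein-coding genes, and CAGAC in 37.3% of members and 40.9% of all. GGCGCC was found in 16.4% of members and 11.1% of all. The 3 members with CAGACC are Hist2h2aa2, Hist2h2aa1 and Hist2h3c1, and the site is the same 30 bases in 2 copies of a duplicated stretch of the Hist2 cluster. The RefSeq start of Hist2h3c1 lies 1131 bp downstream of the annotated 5′ end, so that the bases searched for it are mostly the Hist2h2aa1 promoter, and its matches, promoter elements included, are those of Hist2h2aa1 counted again:
Hist2h2aa2, chr3:96044239-96044268, minus strand: ggcggacaatcgGGTCTGcgtctataaaag
Hist2h2aa1 and Hist2h3c1, chr3:96049409-96049438, plus strand: ggcggacaatcgGGTCTGcgtctataaaag
The palindromic GTCTAGAC was found in 2 members (2.99%) and in 0.143% of all protein-coding genes. The 2 members are the divergent pair Hist1h2an and Hist1h2bp, which share this site between their 5′ ends:
Hist1h2bp, 126 bases before the 5′ end, chr13:21879193-21879222, plus strand: ttcttcttttcGTCTAGACcaatgggaggc
Neither this site nor the Hist2 sites lay in a called peak.

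The base composition of the promoters was then compared with the peak counts, because the share of genes with a SMAD4 peak rose with the CpG content of the promoter in both lists. Protein-coding genes were divided into 5 classes by the number of CpG dinucleotides in the 250 bases. In the lowest class, 3.08% had an E10.5 peak within 5 kb, and in the highest class 26.9% did. In the E9.5 list these shares were 0.784% and 6.81%. The members had a median of 9 CpG dinucleotides, against 8 for all protein-coding genes, and a median GC content of 44.4%, against 54.0%. Most members (40 of 67) were in the middle class, of which 12.6% of all protein-coding genes and 2 of 40 members had an E10.5 peak. Of the members in the 2 upper classes (9 and 5 genes), none had an E10.5 peak, against 17.7% and 26.9% of all protein-coding genes in these classes. The 9 genes include Hist1h2bq, Hist1h2ao, Hist1h2ap and Hist1h2br, where no read-length window matched a single place in the stretches examined below. The 5 genes include Hist2h2aa2, Hist2h2aa1 and Hist2h3c1, whose searched bases are copies of the same duplicated promoter. With so few members per class, a single peak would have changed each of these shares.

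Many of the histone genes are near-identical to others, and reads matching more than 1 place had been discarded by the authors, so the uniqueness of reads was computed. In windows of 63 bases, the length to which the reads were trimmed, a window was called unique if it occurred at 1 place in mm9 with up to 2 mismatches. In the first 500 bases of the gene, a median of 23.3% of windows was unique for the members (quartiles 7.37% and 48.7%). The median was 100% (quartiles 100% and 100%) for 446 protein-coding genes, taken as every 50th gene in the annotation. In 13 members, among them genes of all core histone types, no window of this stretch was unique. In the 1 kb before the 5′ end, the median was 78.8% for the members (quartiles 64.1% and 100%) and 100% for the sampled genes (quartiles 96.2% and 100%).

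**Figure D4:**
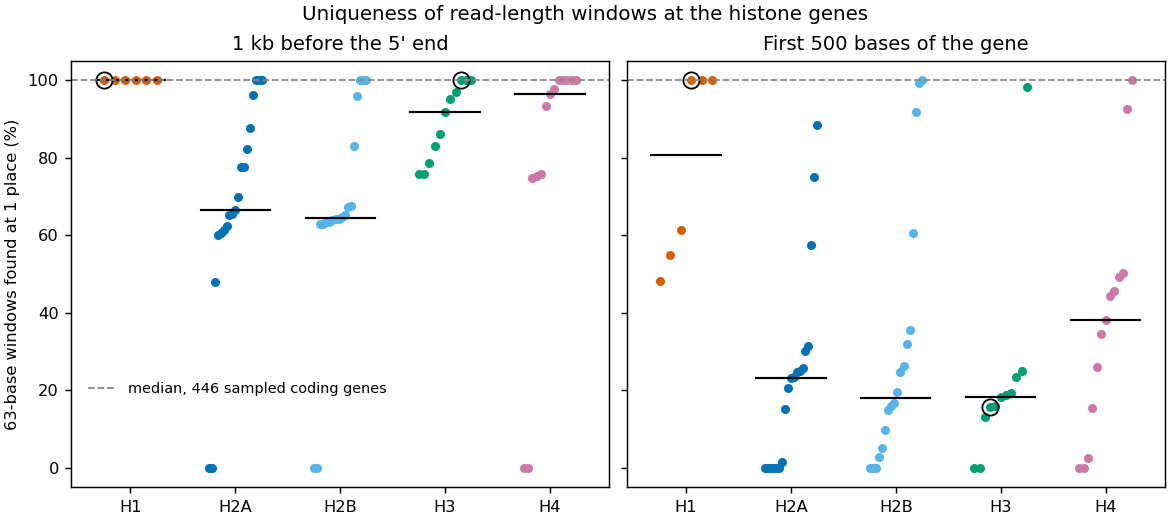
Percentage of 63-base windows that occur at 1 place in mm9 with up to 2 mismatches, for each of the 67 histone genes (points) by histone type, in the 1 kb before the 5′ end (left) and in the first 500 bases of the gene (right). Black bars are medians, the dashed line is the median of 446 sampled protein-coding genes, and circled points are Hist1h1b (100% and 100%) and Hist1h3i (100% and 15.7%). The core histone genes are mostly low in the right panel.

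The types differed in this measure. The medians in the first 500 bases were 80.7% for H1, 23.1% for H2A, 18.1% for H2B, 18.3% for H3 and 38.1% for H4 genes. The single gene with a peak over its 5′ end, Hist1h1b, was at 100% in both stretches, and every window of its peak was unique. Hist1h3i was at 100% before the 5′ end and at 15.7% in the first 500 bases. An extreme case is the inverted copy in the first Hist1 cluster: the 167 bp between Hist1h2bq and Hist1h2ao are identical at 167 of 167 bases to the stretch between Hist1h2ap and Hist1h2br. A piece of it is shown from each copy, with the CCAAT box in capitals, since a read lying wholly in this stretch matches both copies:
Hist1h2bq, chr13:21902126-21902155, minus strand: gtatatcatgaaCCAATcataggcgcccga
Hist1h2br, chr13:21925525-21925554, plus strand: gtatatcatgaaCCAATcataggcgcccga
Among genes with at least 90% unique windows in the 1 kb before the 5′ end, 2 of 28 members (7.14%) and 47 of 367 sampled genes (12.8%) had an E10.5 peak within 5 kb. Among genes with at least 90% in both stretches, 1 of 6 members and 45 of 340 sampled genes (13.2%) did. Among genes with under 50% in the first 500 bases, it was 1 of 51 members (1.96%) and 0 of 43 sampled genes. Therefore, only 6 members were as readable as most coding genes, and the part of read uniqueness in the low count of histone genes was not tested.

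Other gene groups of the pathway were set beside the members, with the lists chosen as described under the processing. Of 12 annotated replication-independent histone genes, which are also used outside S phase, 0 had an E9.5 peak and 4 (33.3%) had an E10.5 peak within 5 kb. The shares of all protein-coding genes were 2.64% and 13.0%. H2afz, which encodes H2A.Z, had a peak with a score of 95.8 at 3.24 kb, and H3f3a, an H3.3 gene, had a peak with a score of 87.0 at 0.545 kb. H1fx, a linker histone variant, had a peak with a score of 65.6 at 1.04 kb. H3f3b, the other H3.3 gene, had a peak with a score of 56.5 at 3.06 kb. All 4 scored above the Hist1h1b peak. The peaks of H2afz, which starts past the end of the gene, and of H3f3b, which lies upstream of it, do not touch their genes, so these were counted by distance alone.

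The factors that act on histone genes or their mRNAs included regulators of transcription and of RNA processing. Of 22 annotated factors, 1 (4.55%) had an E9.5 peak and 9 (40.9%) had an E10.5 peak within 5 kb, against 2.64% and 13.0% of all protein-coding genes. The E9.5 count rests on a single gene and is near the share over all genes. The E9.5 peak (score 72.3, rank 434 of 2073) lay 0.121 kb from the 5′ end of Casp8ap2, which encodes FLASH, a protein of the histone locus body. Among the transcription factors, E2f3 had an E10.5 peak with a score of 151 and Pou2f1, the OCT1 gene, one with a score of 138, which ranked 109 and 147 of 6185. The other regulators of transcription were E2f4 (62.0), Nfya (56.7) and Nfyb (50.8), of which the last 2 encode subunits of NF-Y, and the cyclin E gene Ccne1 (52.9). Among the RNA processing factors were Cpsf2 (67.3), Srrt (58.7) and the U7 snRNP gene Lsm11 (54.7). The centres of these 9 E10.5 peaks were 0.0290 to 0.805 kb from the 5′ ends. Of the listed factors, Npat, Slbp, Lsm10, Zfp473 and Hinfp were among those with no peak of either stage within 5 kb. As a further group of genes, 79 ribosomal protein genes had 0 E9.5 peaks and 6 E10.5 peaks (7.59%) within 5 kb, against the same 2.64% and 13.0%. These shares were described without a test, since the lists were chosen with results of these data known. The CpG content of the promoters in these lists, with which the share of genes with a peak rose, was not compared.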

How the data were processed

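SMAD4-3xFLAG ChIP and input DNA of mouse limb buds (8 samples) were sequenced by the authors. Reads trimmed to 63 bases were aligned to mm9 with Bowtie 1.1.0, and only unique matches with up to 2 mismatches were kept by the authors. Peaks were called per replicate with MACS 1.4 against the matched input, and the replicates were merged with MSPC into 1 list per stage. The deposited score of each peak has no header naming its unit and was treated as a score within its list. Histone genes, 5′ ends and clusters were taken from GENCODE vM1 on the same build (NCBIM37), with 1-based coordinates. Distances were measured from peak centres to 5′ ends of genes. Python 3.11.15, NumPy 2.4.6, pandas 2.3.3, SciPy 1.17.1, Numba 0.67.0 and Matplotlib 3.10.9 were used, and distances and read uniqueness were tested on simulated data. For uniqueness, every place sharing a 21-base seed on chromosomes 1 to 19, X, Y and M was compared on both strands. Of the 67 members, 67 matched a RefSeq gene (GRCm38.p6) by symbol or synonym. The RefSeq promoter of 61 was found in mm9 by its sequence, and for 60 of these a RefSeq start lay within 100 bp of the annotated 5′ end. The exception was Hist2h3c1, with its RefSeq start 1131 bp downstream, and Hist1h2be had a further start 35154 bp downstream. Distances used the annotated 5′ ends.

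The members, the gene lists, the promoter elements and the comparisons were chosen with earlier results of these data known. The genes named are those with a peak centre within 5 kb, the best-scored peak of each cluster at each stage, shared peaks, and the genes of the 2 further lists with a peak. H1 genes without a peak, the neighbours of a named peak and the genes of the printed sites were named after their values were seen. The replication-independent histone list was H2afz, H2afx, H2afv, H2afy, H2afy2, H2afj, H2afb1, H3f3a, H3f3b, H1f0, H1fx, H1foo and Cenpa, of which H1f0 was not found in the annotation by symbol. The list of factors was Npat, Casp8ap2, Slbp, Lsm10, Lsm11, Zfp473, Hinfp, Pou2f1, Nfya, Nfyb, Nfyc, E2f1, E2f2, E2f3, E2f4, Cdk2, Ccne1, Ccne2, Cpsf2, Cpsf3, Sympk, Srrt and Ars2, the last of which is another name of Srrt. No test was run, since each list pools its replicates. Other distances, score thresholds, cluster rules and gene types were tried as alternatives.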

Additional observations from a re-analysis of the deposited data

How the results depend on the processing

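No paired analysis was possible because the replicates of a stage were merged before any value used here, and no replicate could be left out. Of 61 alternative values, 20 moved by more than 1.5 times. Of the other 41, 34 were counts of 0 that stayed at 0, and 7 were E10.5 counts that stayed at 2. Shorter distances, score thresholds and shorter lists could not have changed a count of 0. Longer distances, other transcript starts and other gene types could have raised it. Overlap rules could not change the count of shared peaks, because there was no E9.5 histone-locus peak to share. The count of members with an E10.5 peak (2) became 1 within 1 kb, 1 within 2.5 kb and 1 where the 5′ end had to lie inside the peak. It became 4 within 10 kb, and 14 within 50 kb and 23 within 100 kb, distances chosen after seeing the data. With these, the E9.5 count (0) became 8 and 16, and 2 members had peaks of both stages within 100 kb. Members with an E10.5 peak fell to 0, and E10.5 peaks of the histone loci from 2 to 0, with a score of at least 100, with the better-scored part (the upper 50%) of each list, and with an E10.5 list cut to the length of the E9.5 list. Under these settings, 1.84%, 8.47% and 6.32% of all protein-coding genes had an E10.5 peak within 5 kb, so that few members could have had one with the score threshold. The E10.5 peaks numbered 1 with clusters of members under 50 kb apart and 1 with no clusters, which drops the peak near Slc17a1. Taking the whole span of each symbol family gave 27 E9.5 peaks, 59 E10.5 peaks and 3 shared E9.5 peaks, because the Hist1h span is 29.5 Mb long once Hist1h2al is included. Both histone-locus peaks are low in their list, and depth is unknown, so a deeper or shallower library could change their number.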
